A study of Mus musculus with 18 samples.

Results

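The genes described here are Trp53, which encodes the transcription factor p53, and 9 genes that p53 is known to switch on: Cdkn1a, Mdm2, Ccng1, Phlda3, Trp53inp1, Sesn2, Eda2r, Aen and Zmat3. They were chosen by name, 1 gene for each name, and are 10 of the 45703 genes in the deposited table. Their messenger RNA was followed in 18 libraries of cultured mouse Th17 cells, a class of CD4 T cells known for secreting interleukin-17, which were raised from naive precursors. There were 6 groups of 3 libraries, formed by 3 genotypes, each without and with acetate. WT cells are labelled wild type, and their labels name neither a floxed allele nor a Cre. GLUT3KO cells were Slc2a3-fl/fl Cd4-cre and so lacked the glucose transporter GLUT3 in cells that had expressed the Cd4-driven Cre. ACLYKO cells were Acly-fl/fl Cd4-cre and lacked ATP citrate lyase, the enzyme that makes cytosolic acetyl-CoA from citrate. The strain is labelled C57BL/6, with a running number in place of the last digit in some libraries. All groups shared 48 h of stimulation through CD3 and CD28 with Th17 cytokines, a further 24 h without or with acetate, and a restimulation of 5 h with PMA and ionomycin under brefeldin A and monensin. The acetate dose reads 20 mM in the sample protocols and 10 mM in the series text. Nothing in the labels ties the 3 libraries of a group to different animals, and the p-values therefore speak only of the spread among libraries, which may be technical.

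The p53 protein is held at a low level by Mdm2, the ligase that marks it for degradation, and is stabilised when DNA is damaged or nutrients run short. Stabilised p53 binds pairs of half-sites in DNA and activates genes that stop the cell cycle, limit growth signalling, handle oxidative stress or start apoptosis, and it also activates Mdm2 itself, which closes a feedback loop. Because p53 is controlled mostly at the protein level, the level of Trp53 messenger RNA is not a measure of its activity. In T cells p53 and Cdkn1a, the gene of the cell cycle inhibitor p21, are known to restrain proliferation.

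RefSeq lists windows of 300 bases, from 250 before to 50 after a gene's start, for 8 of the 10 genes (build GRCm38.p6). Trp53inp1 and Zmat3 were not matched. The windows were searched on both strands for the p53 half-site consensus of 10 letters. An exact half-site stood in the windows of 5 members, namely Trp53, Cdkn1a, Mdm2, Ccng1 and Aen, while 8.36% of all 32851 listed windows hold one. A pair of directly adjacent half-sites, each with at most 1 mismatch outside its core, stood in 40 windows (0.122%), 1 of them of Cdkn1a. It lies at chr17:29090928-29090947 before the upstream of 2 listed Cdkn1a starts, which are 2790 bases apart, and reads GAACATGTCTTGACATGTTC. The upstream sequences of 3 members with exact matches are shown because the RNA of these genes behaved differently in the cultures. Capitals mark matches to the half-site with at most 1 mismatch outside the core. Of all 32851 listed windows 39.6% hold such a match. Each line ends at the base before the start.
Cdkn1a, chr17:29090729-29090978, plus strand: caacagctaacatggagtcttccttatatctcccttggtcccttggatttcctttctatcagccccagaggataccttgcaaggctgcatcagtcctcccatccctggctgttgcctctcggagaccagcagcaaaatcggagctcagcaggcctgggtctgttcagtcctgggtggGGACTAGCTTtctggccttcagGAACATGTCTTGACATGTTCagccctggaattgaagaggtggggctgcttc
Mdm2, chr10:117710759-117711008, minus strand: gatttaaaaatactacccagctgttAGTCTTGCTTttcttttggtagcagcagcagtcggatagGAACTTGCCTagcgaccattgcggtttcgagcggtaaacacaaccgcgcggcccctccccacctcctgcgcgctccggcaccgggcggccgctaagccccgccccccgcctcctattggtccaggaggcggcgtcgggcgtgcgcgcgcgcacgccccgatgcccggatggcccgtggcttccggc
Ccng1, chr11:40755287-40755536, minus strand: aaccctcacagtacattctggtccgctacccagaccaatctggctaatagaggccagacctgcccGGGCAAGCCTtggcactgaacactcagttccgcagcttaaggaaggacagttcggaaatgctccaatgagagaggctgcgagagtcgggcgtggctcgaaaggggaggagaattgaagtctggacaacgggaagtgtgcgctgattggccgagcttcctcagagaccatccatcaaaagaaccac
The other exact matches read GGACTTGCCC in the Trp53 window (chr11:69580284-69580293) and GGGCTTGTCC in that of Aen (chr7:78895937-78895946). These are matches of letters only. Binding of p53 was not measured.

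Values are TPM, a read share scaled to exon length and to the same total in every library. The reads recovered from them came to between 18.7 M and 30.1 M for each library, with a median of 23.3 M. Both targeted genes had lower RNA where they were deleted. Acly was at 396 ± 4.27 TPM (SD, n = 3) in WT and 11.3 ± 3.85 in ACLYKO, and Slc2a3 was at 17.7 ± 2.91 in WT and 6.17 ± 2.10 in GLUT3KO, without acetate. Without acetate the summed level of 8 T cell markers was 3228 to 3460 TPM in WT, 4718 to 5222 TPM in GLUT3KO and 1629 to 2727 TPM in ACLYKO, and that of 6 Th17 markers was 1380 to 1585, 334 to 408 and 394 to 518 TPM. With acetate the T cell sum was 3166 to 3344, 4128 to 4202 and 3127 to 3466 TPM in the same genotypes, and the Th17 sum was higher in each, at 3128 to 4139, 2257 to 2620 and 1083 to 1306 TPM. The sum of 2 CD8 T cell markers was 3.98 to 8.71 TPM in ACLYKO without acetate, 15.4 to 17.7 TPM in ACLYKO with it, and 10.1 to 19.9 TPM in the other groups. Their part in the results below was not tested. Markers of B cells (0.257 to 3.16 TPM summed over 5 genes outside ACLYKO with acetate, where they were at 4.24 to 5.61 TPM), myeloid cells (0.130 to 1.93 TPM over 5) and NK cells (0.0461 to 2.46 TPM over 4) were near 0. In RNA from whole cultures, fewer cells that express a gene and less of its RNA per cell cannot be told apart. Libraries of 1 group differed along a single main axis that held 63.6% of the variance within groups. At its high end ACLYKO replicate 1 scored 90.2, WT replicate 1 35.6, GLUT3KO replicate 1 31.9 and ACLYKO replicate 1 with acetate 29.5. At its low end ACLYKO replicate 3 scored -53.5, ACLYKO replicate 2 -36.6 and GLUT3KO replicate 2 -36.0. The 4 libraries of the high end and GLUT3KO replicate 3, which scored 4.10 and so lay near the centre, were left out together as an alternative, while those of the low end were kept. This leaves GLUT3KO and ACLYKO without acetate with 1 and 2 libraries, and the lone GLUT3KO library is then assumed to vary like the other groups. Of the 110 member results 30 changed their call or direction in that fit, and those named below are examples.

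Levels differed widely within the set, compared in TPM and so per length. Cdkn1a had the highest median over the 18 libraries (499 TPM, range 97.4 to 913). It was followed by Ccng1 (306 TPM, range 190 to 491) and Trp53inp1 (269 TPM, range 114 to 669). Sesn2 (199 TPM), Trp53 (111 TPM) and Mdm2 (71.8 TPM) were intermediate. Aen (38.8 TPM), Phlda3 (32.8 TPM) and Zmat3 (32.0 TPM) were lower, and Eda2r had a median of 1.26 TPM on 25 to 206 reads. All 10 genes passed the filter on low values. Eda2r was below 1 TPM in all 3 ACLYKO libraries with acetate, and so passed through the other groups.

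**Figure D1:**
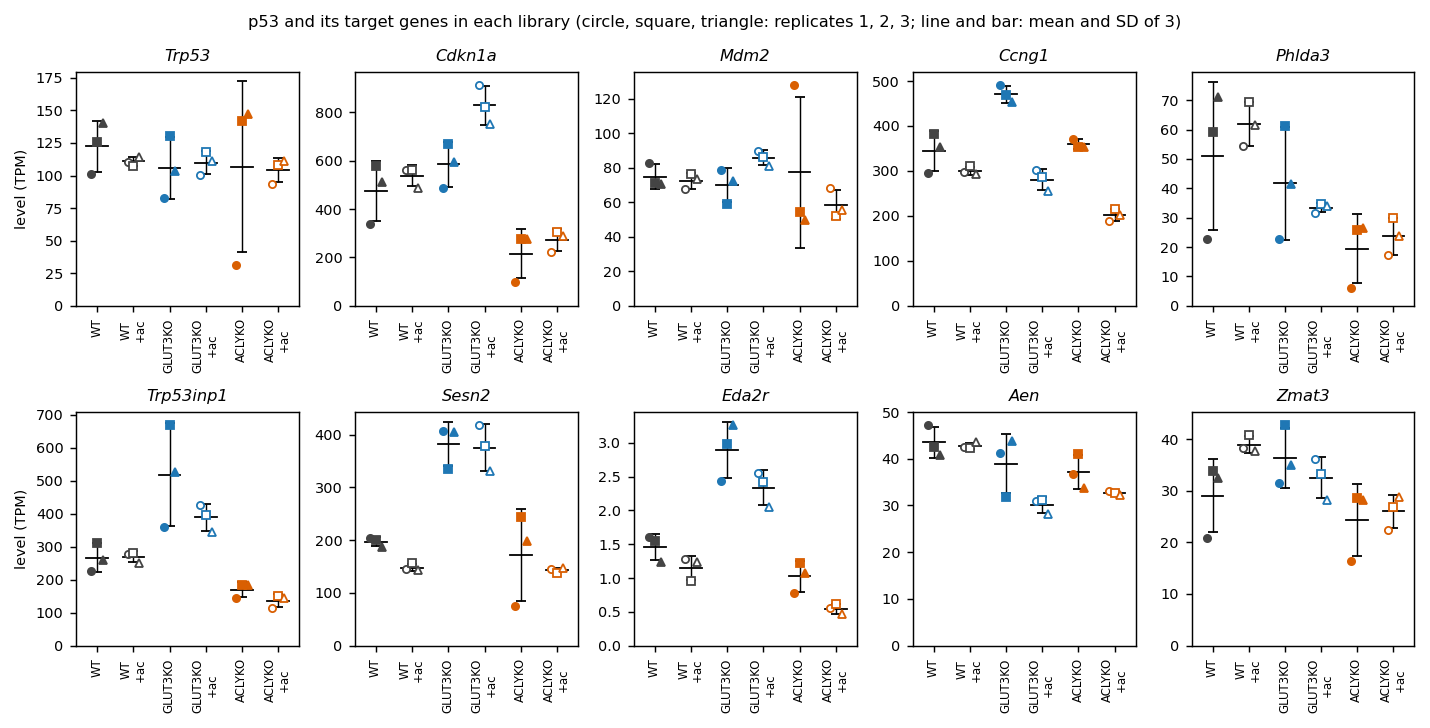
Level of each of the 10 genes in TPM (y axis, linear, from 0) in the 18 libraries by group (x axis). Symbols are replicates 1, 2 and 3, lines and bars are the mean and SD of 3, and filled symbols are cultures without acetate. Cdkn1a, Trp53inp1, Sesn2 and Eda2r stand highest in GLUT3KO, Ccng1 is lower with acetate in both knockouts, and the circle of ACLYKO without acetate (replicate 1) is apart for Trp53, Mdm2 and Sesn2.

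Trp53 itself (GeneID 22059, chr11:69580348-69591873, plus strand) stood at 101, 125 and 140 TPM in WT, at 82.9, 130 and 104 TPM in GLUT3KO and at 31.0, 142 and 147 TPM in ACLYKO without acetate. With acetate it was at 111, 107 and 115 TPM in WT, 100.4, 118 and 111 TPM in GLUT3KO and 93.8, 108 and 111 TPM in ACLYKO. The groups overlapped in every genotype comparison, and the single low library was ACLYKO replicate 1. The mean differences from WT on the log2(TPM + 1) scale, on which all changes below are given, were -0.22 for GLUT3 loss (limma adjusted p = 0.714) and -0.48 for ACLY loss (adjusted p = 0.449) without acetate. Without ACLYKO replicate 1 the ACLY value was 0.25 (adjusted p = 0.321). Wrap53, which lies next to Trp53 on the other strand, passed no test either, at -0.45 and -0.69 for the 2 losses.

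Mdm2 (GeneID 17246, chr10:117688875-117710758, minus strand), the inhibitor and target of p53, was at 83.0, 71.0 and 70.3 TPM in WT, 78.4, 59.1 and 72.5 TPM in GLUT3KO and 128, 54.1 and 49.8 TPM in ACLYKO without acetate. With acetate it was at 67.4, 76.5 and 73.5 TPM in WT, 89.9, 86.4 and 81.1 TPM in GLUT3KO and 68.4, 52.1 and 55.3 TPM in ACLYKO. ACLYKO replicate 1 was the highest of all 18 libraries and the other two ACLYKO libraries were the lowest of the untreated ones. Mdm2 passed the test in none of the comparisons. Without ACLYKO replicate 1 it was lower in ACLYKO than in WT (log2 change -0.51, limma adjusted p = 0.0146). The difference between GLUT3KO and ACLYKO then turned from -0.01 to 0.41 (adjusted p = 0.0228), and that of Trp53 turned from 0.26 to -0.47 (adjusted p = 0.0302).

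The first question was how loss of GLUT3 bears on these genes without acetate. Trp53inp1, Sesn2, Eda2r and Ccng1 rose, and none of the 10 fell. This is 4 of 10 against 24.9% of all 14229 tested genes called higher, 8.47% called lower and 33.4% called in either direction at an adjusted p under 0.05. The 3 libraries of each group did not overlap for the same 4 members, all higher, against 45.5% of all genes (31.2% higher and 14.2% lower). The median change was 0.33 for the 10 genes and 0.17 for all genes. With each library scaled by median ratios the median of all genes was -0.01, Ccng1 was no longer called (0.24, limma adjusted p = 0.275), and Aen was called lower (-0.38, adjusted p = 0.0439). Quantile normalization (-0.41, adjusted p = 0.0202) and voom on recovered reads (-0.37, adjusted p = 0.0387) also called Aen lower.

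Trp53inp1 (GeneID 60599, chr4:11156441-11174379, plus strand), which codes for a stress protein that takes part in autophagy and apoptosis, was at 225, 312 and 261 TPM in WT and at 359, 669 and 528 TPM in GLUT3KO. Every GLUT3KO library was above every WT library, and the GLUT3KO libraries were spread more widely. Its log2 change was 0.93 ± 0.21 (SE, limma adjusted p = 0.00293). Sesn2 (GeneID 230784, chr4:132492804-132510456, minus strand), the gene of a sestrin that damps mTORC1 when amino acids are scarce, was at 204, 200 and 188 TPM in WT and at 408, 335 and 404 TPM in GLUT3KO. All 3 knockout libraries were well above the 3 WT libraries, and the change was 0.95 ± 0.30 (limma adjusted p = 0.0234). The call was lost without WT replicate 2 (adjusted p = 0.0596), WT replicate 3 (0.0691), GLUT3KO replicate 1 (0.0698) or GLUT3KO replicate 3 (0.0717). At 0.90 to 0.96 the change itself stayed close to the value above in those fits.

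Eda2r (GeneID 245527, chrX:97333837-97377234, minus strand), a receptor of the tumor necrosis factor receptor family for the ectodysplasin A2 ligand, was at 1.60, 1.55 and 1.23 TPM in WT and at 2.44, 2.98 and 3.26 TPM in GLUT3KO. The groups did not overlap. Its log2 change was 0.66 ± 0.12 (limma adjusted p = 0.000811), and 0.94 with a pseudocount of 0.1 in place of 1, since the scale understates changes of low genes. Ccng1 (GeneID 12450, chr11:40748552-40755309, minus strand), which codes for cyclin G1, a regulator of Mdm2 through a phosphatase, was at 296, 383 and 352 TPM in WT and at 491, 468 and 454 TPM in GLUT3KO. Again all GLUT3KO libraries were higher, by 0.46 ± 0.12 on the log2 scale (limma adjusted p = 0.00845). This call was lost with median-ratio scaling (0.24, adjusted p = 0.275) and with voom on recovered reads (0.26, adjusted p = 0.221). It was also lost in a fit of the 2 groups alone (adjusted p = 0.0697).

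Cdkn1a (GeneID 12575, chr17:29090979-29100722, plus strand), the gene of p21, was at 338, 577 and 510 TPM in WT and at 486, 671 and 597 TPM in GLUT3KO. These ranges overlapped, and the log2 change of 0.32 ± 0.32 did not pass (limma adjusted p = 0.476). Phlda3 (GeneID 27280, chr1:135766085-135769134, plus strand), which encodes a small protein that blocks AKT at the membrane, was at 22.8, 59.3 and 71.0 TPM in WT and at 22.7, 61.2 and 41.3 TPM in GLUT3KO. Replicate 1 was the low library in both. Its change was -0.24 ± 0.51 (limma adjusted p = 0.744). Aen (GeneID 68048, chr7:78895927-78911209, plus strand), the gene of an apoptosis-linked nuclease, and Zmat3 (GeneID 22401, chr3:32334792-32365665, minus strand), that of a zinc finger RNA-binding protein, changed by -0.17 ± 0.13 (adjusted p = 0.335) and 0.33 ± 0.22 (adjusted p = 0.267). Zmat3 overlaps the long noncoding gene 4930429B21Rik (0.277 to 1.84 TPM) on the other strand over 177 bases, and how the counting treated strand is not stated in the labels or notes.

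**Figure D2:**
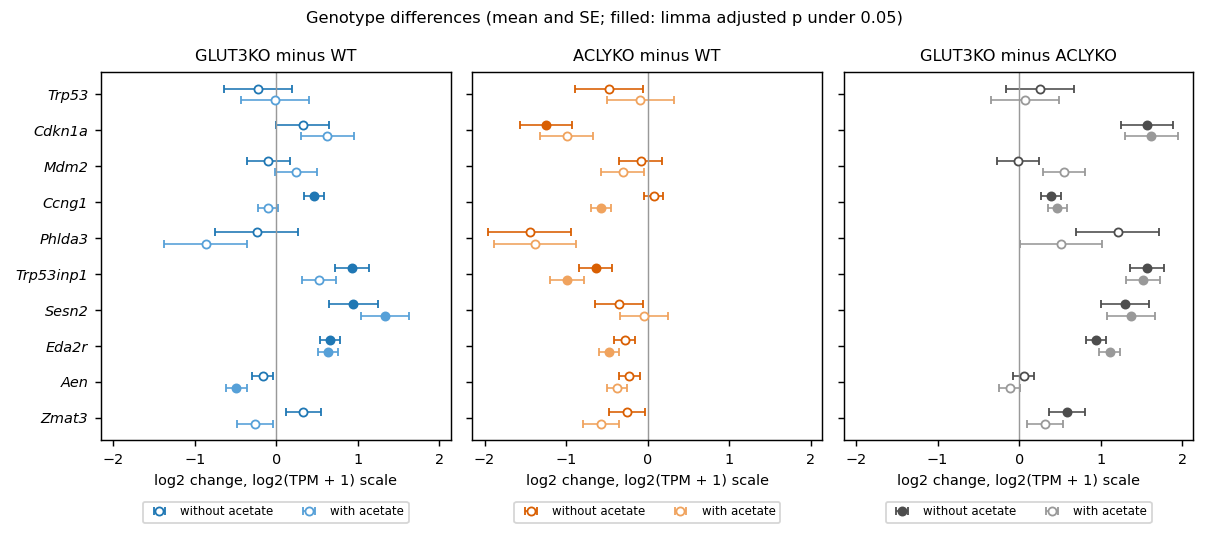
Difference between genotypes in log2(TPM + 1) (x axis) for each gene (y axis), as the fitted mean with its SE, without acetate (upper, darker points) and with acetate (lower, lighter points). Filled points passed a limma adjusted p of 0.05. Trp53inp1, Sesn2 and Eda2r lie right of 0 for GLUT3KO minus WT, and the filled points for ACLYKO minus WT lie left of 0.

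With acetate, loss of GLUT3 left Sesn2 and Eda2r higher and Aen lower than in WT, which is 3 of 10 against 30.4% of all genes in either direction (20.9% higher, 9.5% lower). Libraries did not overlap for 8 members, 5 higher and 3 lower, against 71.2% of all genes (41.4% higher and 29.9% lower), so that separation of the libraries was the rule in this comparison. Sesn2 was at 144, 156 and 143 TPM in WT and 418, 378 and 330 TPM in GLUT3KO, a log2 change of 1.33 ± 0.30 (limma adjusted p = 0.00312). Eda2r was at 1.28, 0.952 and 1.23 TPM in WT and 2.55, 2.42 and 2.04 TPM in GLUT3KO (0.63 ± 0.12, adjusted p = 0.00125). Neither gene's groups overlapped. Aen was at 42.4, 42.2 and 43.5 TPM in WT and at 31.1, 31.1 and 28.2 TPM in GLUT3KO, so that its fall by 0.49 on the log2 scale (SE 0.13, limma adjusted p = 0.00831) was small against a still smaller spread.

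Cdkn1a was higher in each GLUT3KO library with acetate (913, 823 and 754 TPM) than in any WT library with acetate (562, 563 and 488 TPM). The log2 difference of 0.62 ± 0.32 had a limma adjusted p of 0.170 over 18 libraries and of 0.0142 without ACLYKO replicate 1. For Trp53inp1 the values were 278, 282 and 250 TPM in WT and 425, 397 and 345 TPM in GLUT3KO, also without overlap (0.52 ± 0.21, adjusted p = 0.0702). That difference passed without GLUT3KO replicate 1 (adjusted p = 0.0310), GLUT3KO replicate 2 (0.0421) or ACLYKO replicate 1 (0.0400). Phlda3 was lower in all GLUT3KO libraries with acetate (31.7, 34.6 and 33.9 TPM) than in WT (54.5, 69.6 and 61.7 TPM), with a log2 difference of -0.87 ± 0.51 (adjusted p = 0.223). None of the 5 libraries left out as an alternative belongs to this comparison. In that fit the Phlda3 difference therefore stayed at -0.87, and only the spread shared over all groups changed. A fit of the 2 groups alone called Phlda3 lower (limma adjusted p = 9.0e-05) and Cdkn1a (0.000404) and Trp53inp1 (0.000969) higher. Without acetate the Phlda3 libraries overlapped.

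The second question was how loss of ACLY bears on the same genes. Without acetate Cdkn1a and Trp53inp1 fell and no member rose, 2 of 10 against 6.38% of all genes called lower, 12.7% higher and 19.1% called in either direction. The median change was -0.32 for the 10 genes and 0.03 for all genes. Cdkn1a was at 97.4, 275 and 276 TPM in ACLYKO, below all 3 WT libraries (338, 577 and 510 TPM). Its log2 change was -1.25 ± 0.32 (limma adjusted p = 0.0141), and -0.75 without ACLYKO replicate 1 (adjusted p = 0.0174). The call was lost without WT replicate 2 (adjusted p = 0.0689) or WT replicate 3 (0.0558), and in a fit of the 2 groups alone (0.267).

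Trp53inp1 was at 144, 183 and 182 TPM in ACLYKO, likewise below every WT library, with a log2 change of -0.64 ± 0.21 (limma adjusted p = 0.0427). This call was kept in 12 of 27 alternatives. It was lost without WT replicate 2 (adjusted p = 0.173), WT replicate 3 (0.102), ACLYKO replicate 1 (0.0952) or ACLYKO replicate 2 (0.0518), and also without replicate 3 of GLUT3KO, replicate 2 or 3 of ACLYKO with acetate or any library of WT or GLUT3KO with acetate (0.0516 to 0.0581). Phlda3 was at 5.90, 25.8 and 26.5 TPM in ACLYKO, where the lowest WT library was at 22.8 TPM. Its change of -1.45 ± 0.51 had a limma adjusted p of 0.0586, and of 0.00724 when the replicate number, taken as pairing WT and ACLYKO libraries, was fitted as a block. It also passed without WT replicate 1 (0.0164), ACLYKO replicate 2 (0.0376) or ACLYKO replicate 3 (0.0318). The same holds with median-ratio scaling (0.0368), quantile normalization (0.0421) and voom on recovered reads (0.0427). Without ACLYKO replicate 1 it was -0.79 (adjusted p = 0.201).

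The other members passed no test for ACLY loss without acetate. Ccng1 was at 372, 353 and 353 TPM, within the WT range. Sesn2 was at 75.3, 244 and 199 TPM around the WT values, and its log2 difference went from -0.35 to 0.16 without ACLYKO replicate 1 (limma adjusted p = 0.433 and 0.419). Eda2r was lower in all 3 ACLYKO libraries (0.781, 1.22 and 1.07 TPM) than in WT, by 0.28 ± 0.12 (adjusted p = 0.128). Its libraries and those of Cdkn1a and Trp53inp1 did not overlap with WT, 3 of 10 members, all lower, against 26.8% of all genes (16.1% higher and 10.8% lower).

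With acetate, loss of ACLY was accompanied by a fall of Trp53inp1, Ccng1 and Eda2r, 3 of 10 against 1.98% of all genes called lower, 11.5% higher and 13.5% in either direction. The median of the 10 differences was -0.52, against 0.16 for all genes. They ran from -1.38 for Phlda3 to -0.04 ± 0.30 for Sesn2 (limma adjusted p = 0.949). Trp53 (-0.09 ± 0.41, adjusted p = 0.922) and Mdm2 (-0.31 ± 0.26, adjusted p = 0.502) did not pass either. Trp53inp1 was at 114, 149 and 145 TPM in ACLYKO and 278, 282 and 250 TPM in WT, a log2 change of -0.99 ± 0.21 (limma adjusted p = 0.00487). Ccng1 was at 190, 215 and 202 TPM against 298, 311 and 293 TPM (-0.57 ± 0.12, adjusted p = 0.00537). Eda2r was at 0.553, 0.611 and 0.470 TPM against 1.28, 0.952 and 1.23 TPM (-0.48 ± 0.12, adjusted p = 0.0181). In each of these genes the highest ACLYKO library was below the lowest WT library. The Eda2r call was lost without WT replicate 1 (adjusted p = 0.0811), WT replicate 3 (0.0684), ACLYKO replicate 1 (0.0573) or ACLYKO replicate 3 (0.0754), all with acetate.

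A further 4 members had all ACLYKO libraries below all WT libraries with acetate but did not pass, so that 7 of 10 did not overlap, against 54.1% of all genes (38.9% higher and 15.2% lower). Cdkn1a was at 220, 304 and 290 TPM in ACLYKO and 562, 563 and 488 TPM in WT (log2 difference -0.99 ± 0.32, limma adjusted p = 0.0568). Phlda3 was at 17.4, 29.8 and 23.7 TPM against 54.5, 69.6 and 61.7 TPM (-1.38 ± 0.51, adjusted p = 0.0897). Aen (33.0, 32.7 and 32.2 TPM against 42.4, 42.2 and 43.5 TPM) and Zmat3 (22.5, 26.9 and 28.7 TPM against 38.3, 40.7 and 37.7 TPM) had smaller differences. Their adjusted p were 0.0650 and 0.109.

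For these 4 genes the call changed with a library outside the comparison, since the fit shares its error over all groups. Without ACLYKO replicate 1, a culture without acetate, Cdkn1a (limma adjusted p = 0.00158), Phlda3 (0.0153), Aen (0.0256) and Zmat3 (0.0235) also passed, which made 7 of 10. In that fit 640 of 14171 genes were called lower and 3752 in either direction, against 282 and 1925 of 14229 over all libraries. Cdkn1a passed too without WT replicate 1 (0.0474), ACLYKO replicate 2 (0.0467) or ACLYKO replicate 3 (0.0448), and Aen without GLUT3KO replicate 2 (0.0323), all without acetate. The same 7 genes were called with median-ratio scaling, which moved the median of all genes to -0.02.

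**Figure D3:**
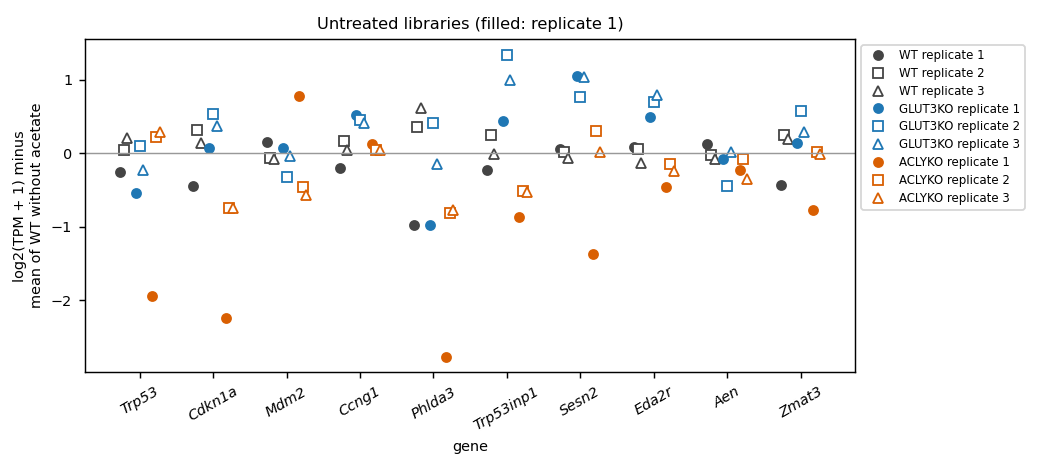
Level of each gene in the 9 libraries without acetate, as log2(TPM + 1) minus the mean of WT (y axis), by gene (x axis). Filled symbols are replicate 1 of each genotype, and ACLYKO replicate 1 stands apart from the other two ACLYKO libraries for Trp53, Cdkn1a, Mdm2, Phlda3 and Sesn2 but not for Ccng1 or Aen.

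Within groups the members followed the main axis of variation to different degrees. Across the 18 libraries the residual of log2(TPM + 1) from the group mean correlated with the library score at -0.96 for Cdkn1a, -0.95 for Trp53, -0.95 for Phlda3 and -0.91 for Zmat3. Mdm2 ran the other way, at 0.97. Trp53inp1 (-0.71) and Sesn2 (-0.69) were intermediate, and Eda2r (-0.41), Aen (0.37) and Ccng1 (-0.13) followed it least. These are descriptions of 18 libraries that share the fit, and ACLYKO replicate 1 has the highest score among them. The part of this axis in the differences between groups was not tested.

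Acetate, which cells can turn into acetyl-CoA without ACLY, was compared in each genotype with the cultures that lacked it. In WT 0 of 10 members passed limma's test, 0 had an unadjusted p under 0.05 and voom on recovered reads also called 0, against 6.5% of all genes (4.22% higher and 2.28% lower). Libraries did not overlap for 2 members, against 41.2% of all genes (19.2% higher and 22% lower). Sesn2 was lower in all 3 WT libraries with acetate (144, 156 and 143 TPM against 204, 200 and 188 TPM), with a log2 difference of -0.41 ± 0.30 (limma adjusted p = 0.517), and it passed without ACLYKO replicate 1 (adjusted p = 0.0220). Zmat3 was higher in all 3 (38.3, 40.7 and 37.7 TPM against 20.8, 33.8 and 32.5 TPM), by 0.44 ± 0.22 (adjusted p = 0.297). The other members overlapped.

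In GLUT3KO Ccng1 fell with acetate, 1 of 10 against 7.89% of all genes called lower, 4.86% higher and 12.7% in either direction. Libraries did not overlap for 4 members, 2 higher (Cdkn1a and Mdm2) and 2 lower (Ccng1 and Aen), against 44.6% of all genes (16.3% higher and 28.3% lower). It went from 491, 468 and 454 TPM to 301, 287 and 255 TPM, a log2 change of -0.75 ± 0.12 (limma adjusted p = 0.00103), and this call was kept in all 28 alternatives. Every library with acetate was below every library without. Aen was also lower in each (31.1, 31.1 and 28.2 TPM against 41.2, 31.8 and 43.8 TPM), by 0.35 ± 0.13 (adjusted p = 0.0869), and passed without GLUT3KO replicate 2 (0.0185) or ACLYKO replicate 1 (0.0355). Cdkn1a was higher in all 3 libraries with acetate (913, 823 and 754 TPM against 486, 671 and 597 TPM), but its difference of 0.51 ± 0.32 did not pass (adjusted p = 0.307).

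In ACLYKO Ccng1 and Eda2r fell with acetate, 2 of 10 against 5.6% of all genes called lower, 11.7% higher and 17.3% in either direction. Libraries did not overlap for these genes and Aen, all lower, against 27.7% of all genes (18.7% higher and 9.09% lower). Ccng1 went from 372, 353 and 353 TPM to 190, 215 and 202 TPM, a log2 change of -0.83 ± 0.12 (limma adjusted p = 0.000226). Here too the 3 and 3 libraries did not overlap, and the change was lost only in a fit of the 2 groups alone (adjusted p = 0.0794) of 28 alternatives. Eda2r went from 0.781, 1.22 and 1.07 TPM to 0.553, 0.611 and 0.470 TPM (-0.38 ± 0.12, adjusted p = 0.0456). Same-numbered libraries of 1 genotype were taken as paired because their residuals correlated, and with that block the Eda2r change was not called (adjusted p = 0.0939). It was kept in 10 of 26 alternatives, and of the 18 fits without 1 library it passed only where WT replicate 1 or 3, GLUT3KO replicate 1 or 3 or ACLYKO replicate 1 was the one left out. Without any of the others its adjusted p was 0.0522 to 0.154.

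For Sesn2 in ACLYKO the outcome rested on 1 library. Its log2 difference with acetate was -0.10 ± 0.30 (limma adjusted p = 0.842) over all libraries and -0.61 (adjusted p = 0.00309) without ACLYKO replicate 1, since the other two untreated libraries, at 244 and 199 TPM, were above all 3 with acetate (145, 138 and 147 TPM). Trp53 turned from 0.26 to -0.47 in the same fit (adjusted p = 0.0646).

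The acetate change of Ccng1 was then compared between genotypes. In WT it was -0.19 (296, 383 and 352 TPM to 298, 311 and 293 TPM), and the difference from it was -0.56 ± 0.17 in GLUT3KO (limma adjusted p = 0.228) and -0.64 ± 0.17 in ACLYKO (adjusted p = 0.0966). Of the 10 members 0 passed this interaction in either knockout, against 0.773% of all genes in GLUT3KO (0.225% higher and 0.548% lower) and 1.34% in ACLYKO (0.78% higher and 0.562% lower), and voom also called 0. Ccng1 was the only member with an unadjusted p under 0.05, in both. With the 5 libraries left out its ACLYKO interaction passed (-0.47, adjusted p = 0.0339). In group means, Ccng1 fell from 471 ± 18.8 TPM in GLUT3KO without acetate over 359 ± 10.7 in ACLYKO without acetate, 344 ± 44.2 in WT without acetate, 301 ± 8.97 in WT with acetate and 281 ± 23.7 in GLUT3KO with acetate to 202 ± 12.8 in ACLYKO with acetate. Only the highest and the lowest of these 6 groups had no library in the range of a neighbouring group.

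Set against each other without acetate, GLUT3KO had higher levels than ACLYKO of 6 of the 10 genes and lower levels of none, against 25.2% of all genes called higher, 15.2% lower and 40.4% in either direction. Libraries did not overlap for the same 6, against 40.9% of all genes (25.7% higher and 15.2% lower). Cdkn1a differed by 1.57 ± 0.32 (limma adjusted p = 0.00130), Trp53inp1 by 1.57 ± 0.21 (adjusted p = 2.75e-05) and Sesn2 by 1.30 ± 0.30 (adjusted p = 0.00267). Without ACLYKO replicate 1 Cdkn1a differed by 1.07 (adjusted p = 0.000745) and Sesn2 by 0.79 (0.000141). In a fit of the 2 groups alone neither Cdkn1a (0.0629) nor Sesn2 (0.108) was called. Eda2r differed by 0.94 ± 0.12 (adjusted p = 2.64e-05), and by 1.42 with a pseudocount of 0.1. In these 4 genes the lowest GLUT3KO library was above the highest ACLYKO library.

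Ccng1 (0.39 ± 0.12, limma adjusted p = 0.0182) and Zmat3 (0.59 ± 0.22, adjusted p = 0.0438) completed the 6. Ccng1 was not called with median-ratio scaling (0.22, adjusted p = 0.319), with voom (0.24, adjusted p = 0.258) or without GLUT3KO replicate 1 (0.0581). Zmat3 was kept in 11 of 27 alternatives. It was lost with median-ratio scaling (adjusted p = 0.113) and without GLUT3KO replicate 2 (adjusted p = 0.147), GLUT3KO replicate 3 (0.0827) or ACLYKO replicate 1 (0.152), and also without replicate 2 or 3 of ACLYKO with acetate or any library of WT or GLUT3KO with acetate (0.0503 to 0.0564). Phlda3 differed by 1.21 ± 0.51 (adjusted p = 0.0707). It passed without WT replicate 1 (0.0459), GLUT3KO replicate 1 (0.0356), ACLYKO replicate 2 (0.0400) or ACLYKO replicate 3 (0.0364), while without ACLYKO replicate 1 it was 0.55 (adjusted p = 0.292).

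The comparison with acetate was added after the data were seen. Here 5 genes were higher in GLUT3KO, against 17.7% of all genes higher, 20% lower and 37.7% in either direction. Libraries did not overlap for 7 members that were higher and for Aen, which was lower, against 63.4% of all genes (28.4% higher and 35% lower). Cdkn1a differed by 1.62 ± 0.32 (limma adjusted p = 0.00112), Trp53inp1 by 1.52 ± 0.21 (adjusted p = 4.29e-05), Sesn2 by 1.37 ± 0.30 (adjusted p = 0.00193), Eda2r by 1.11 ± 0.12 (adjusted p = 6.71e-06) and Ccng1 by 0.47 ± 0.12 (adjusted p = 0.00642). These 5 calls were kept in every alternative that could be fitted. Mdm2 was higher in all 3 GLUT3KO libraries (89.9, 86.4 and 81.1 TPM) than in ACLYKO (68.4, 52.1 and 55.3 TPM), with a difference of 0.55 ± 0.26 (adjusted p = 0.117), and it passed without ACLYKO replicate 1 (0.00194). The order of Cdkn1a group means ran from 830 ± 79.9 TPM in GLUT3KO with acetate over 585 ± 93.4 TPM in GLUT3KO, 538 ± 42.9 TPM in WT with acetate and 475 ± 123 TPM in WT to 272 ± 44.8 TPM in ACLYKO with acetate and 216 ± 103 TPM in ACLYKO. Ranges of neighbours overlapped except between GLUT3KO with and without acetate and between WT and ACLYKO with acetate.

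The other p53 targets gave a mixed picture between the same groups. The list held 35 further known targets, of which 33 were tested. Without acetate 15 were higher and 6 lower in GLUT3KO than in ACLYKO, with a median of 0.62 against 0.10 for all genes. Among those higher were Apaf1, the scaffold of the apoptosome (2.36 ± 0.15, limma adjusted p = 1.76e-08), Perp, a membrane protein of the apoptosis response (2.09 ± 0.22, adjusted p = 3.74e-06), and the death receptor Fas (1.48 ± 0.17, adjusted p = 6.85e-06). With acetate 7 were higher and 8 lower, with a median of -0.12 against -0.07. The shares of all genes were 25.2% higher and 15.2% lower without acetate, and 17.7% and 20% with it.

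**Figure D4:**
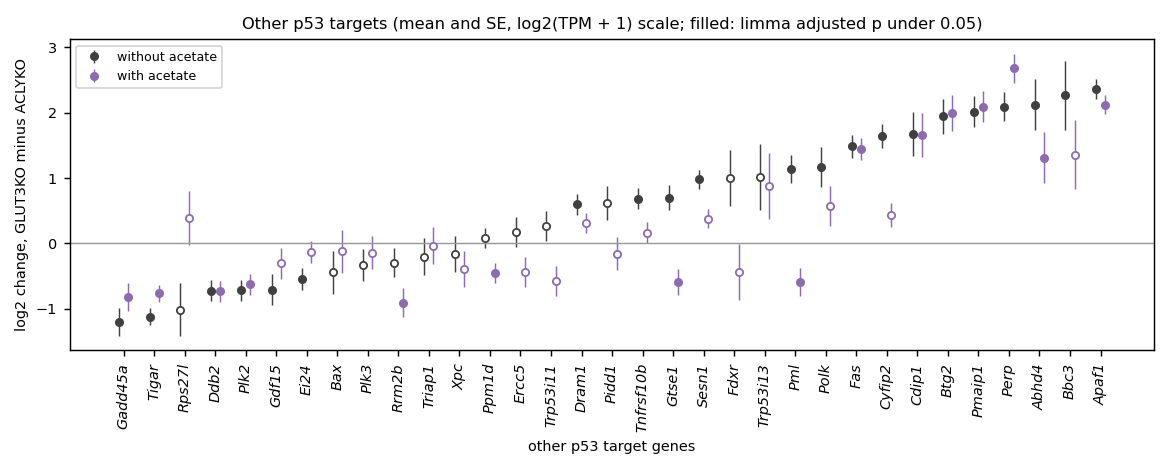
Difference between GLUT3KO and ACLYKO in log2(TPM + 1) (y axis) for the 33 tested further p53 targets (x axis, ordered by the value without acetate), as the fitted mean with its SE, without acetate (dark) and with acetate (purple). Filled points passed a limma adjusted p of 0.05, which were 15 higher and 6 lower without acetate and 7 higher and 8 lower with it.

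Against WT without acetate, 10 of the 33 rose and 3 fell in GLUT3KO, near the 24.9% and 8.47% of all genes that did. In ACLYKO 6 rose and 5 fell, against 12.7% and 6.38% of all genes. With acetate the counts were 8 and 5 in GLUT3KO, against 20.9% and 9.5%, and 3 and 4 in ACLYKO, against 11.5% and 1.98%. The medians for GLUT3 loss were 0.34 and 0.19, without and with acetate, and those for ACLY loss were -0.06 and -0.07. In GLUT3KO Perp rose from 10.7 ± 4.12 to 94.9 ± 16.4 TPM without acetate (3.09 ± 0.22, limma adjusted p = 1.15e-07). Pmaip1, the gene of the BH3-only protein NOXA, rose from 47.2 ± 4.55 to 171 ± 10.9 TPM (1.84 ± 0.24, adjusted p = 3.18e-05). Fas (1.55 ± 0.17) and Apaf1 (1.38 ± 0.15) also rose, while with acetate the kinase gene Plk2 fell by 1.37 on the log2 scale (adjusted p = 1.21e-05). In ACLYKO without acetate the DNA repair gene Ddb2 (1.08 ± 0.16, adjusted p = 0.000265) and the stress gene Gadd45a (1.09 ± 0.22, adjusted p = 0.00263) rose, and Apaf1 (-0.98 ± 0.15) and the death receptor gene Tnfrsf10b (-0.99 ± 0.16) fell. With acetate Ddb2, Gadd45a and the ribonucleotide reductase gene Rrm2b (1.07 ± 0.22, adjusted p = 0.00430) rose and Apaf1 fell.

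With acetate 8 of the 33 fell and none rose in GLUT3KO, against 7.89% of all genes lower and 4.86% higher. Among them were Gtse1, whose product binds p53 (-1.27 ± 0.20, limma adjusted p = 0.000793), the phosphatase gene Ppm1d (-0.80 ± 0.15, adjusted p = 0.00357), Plk2 (-0.81 ± 0.16) and Rrm2b (-1.10 ± 0.22). In WT 2 rose and 2 fell, against 4.22% of all genes higher and 2.28% lower. Among these were Rrm2b at -0.86 ± 0.22 (adjusted p = 0.0297) and Fas at 0.72 ± 0.17 (adjusted p = 0.0202). In ACLYKO 1 rose (Trp53i11, 1.09 ± 0.23) and 3 fell (Plk2, Ei24 and Perp), against 11.7% of all genes higher and 5.6% lower.

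Regulators of p53 were described by 18 tested genes of 21 listed. For GLUT3 loss without acetate 5 rose and none fell, with a median of 0.36. That is near the 24.9% of all genes called higher, and the median of all genes was 0.17. Mdm4, the partner of Mdm2 in holding p53 down, rose from 31.6 ± 2.51 to 87.7 ± 2.37 TPM (1.45 ± 0.16, limma adjusted p = 8.63e-06), and it was also higher with acetate (1.33 ± 0.16, adjusted p = 2.15e-05). The p53-binding genes Ppp1r13b (1.38 ± 0.21) and Ppp1r13l (0.81 ± 0.15) and the ligase gene Cop1 (0.70 ± 0.21) also rose without acetate. With median-ratio scaling 3 regulators rose and 1 fell. For ACLY loss without acetate 6 rose and none fell, with a median of 0.34, against 12.7% of all genes higher and a median of 0.03, and with median-ratio scaling 6 rose and 2 fell. They included the checkpoint kinases Chek1 (1.83 ± 0.28, adjusted p = 0.000404), Chek2 (1.10 ± 0.20) and Atr (0.68 ± 0.13), and Ppp1r13b (1.19 ± 0.21). With acetate 4 rose and 1 fell in each knockout. Of all genes 20.9% rose and 9.5% fell with GLUT3 loss, and 11.5% rose and 1.98% fell with ACLY loss. With acetate Sirt1, the gene of a deacetylase of p53, fell in WT (-0.85 ± 0.13, adjusted p = 0.000847), GLUT3KO (-0.68 ± 0.13, adjusted p = 0.00280) and ACLYKO (-0.87 ± 0.13, adjusted p = 0.000201). In these genotypes 2, 6 and 2 regulators fell and none rose. Of all genes 2.28%, 7.89% and 5.6% were called lower, and 4.22%, 4.86% and 11.7% higher.

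Cdkn1a is one of several genes of cyclin-dependent kinase inhibitors, and 5 others of 6 listed were tested. Cdkn1b, the gene of p27, rose in GLUT3KO from 45.4 ± 6.24 to 193 ± 8.04 TPM without acetate (2.07 ± 0.22, limma adjusted p = 4.40e-06). Cdkn2c, the gene of p18, rose from 2.74 ± 1.05 to 18.8 ± 3.42 TPM (2.42 ± 0.21, adjusted p = 7.24e-07). Cdkn2c also rose in ACLYKO without acetate (1.01 ± 0.21, adjusted p = 0.00374) and with it (1.89 ± 0.21, adjusted p = 7.21e-05), where Cdkn1a was at its lowest. Among the 5 tested inhibitors 2 rose with GLUT3 loss without acetate and 3 with it, against 24.9% and 20.9% of all genes higher. For ACLY loss with acetate 1 rose, against 11.5% of all genes. No inhibitor was called lower in any of these comparisons. Of the 5 tested inhibitors 3 rose and none was called lower with ACLY loss without acetate, against 12.7% of all genes higher. Cdkn2a and Cdkn1c among them stayed under 2 TPM on average, near the filter of 1 TPM.

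**Figure D5:**
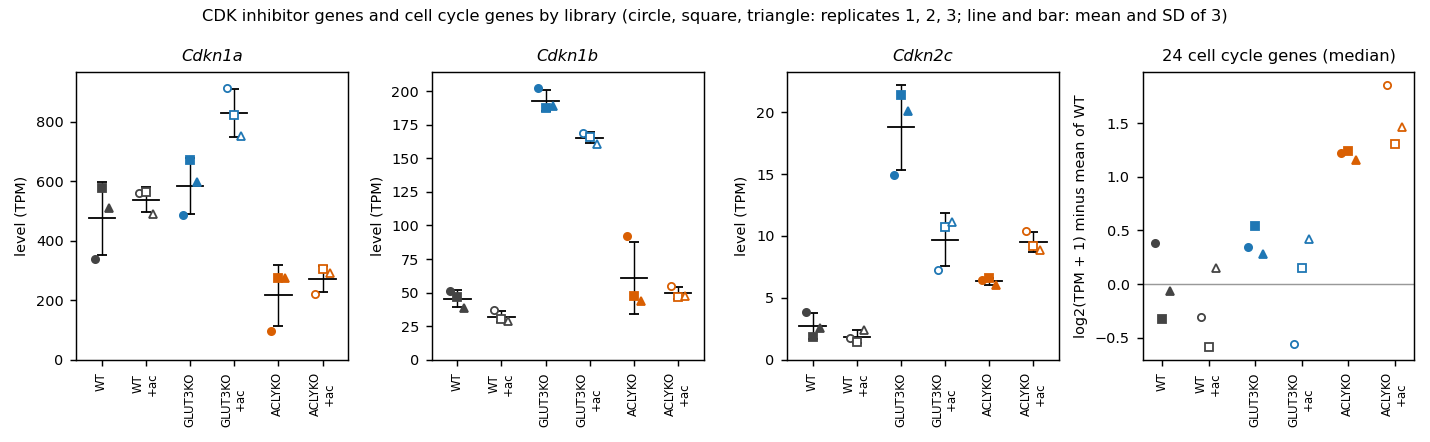
Levels of Cdkn1a, Cdkn1b and Cdkn2c in TPM (y axes, linear, from 0) in each library by group, with mean and SD of 3, and the median over 24 cell cycle genes of log2(TPM + 1) minus the mean of WT without acetate (right panel). All 6 ACLYKO libraries lie between 1.16 and 1.85 in the right panel, above the other 12, and have the lowest Cdkn1a.

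Genes of DNA replication and mitosis, which p21 is known to hold down through the DREAM complex, were taken as 24 genes, all tested. Of these 18 rose and none fell with ACLY loss without acetate (median 1.25), and 23 rose with acetate (median 1.81), against 12.7% and 11.5% of all genes higher. Among them was Tyms, which codes for thymidylate synthase (1.57 ± 0.18, limma adjusted p = 3.83e-05, and 1.73 ± 0.18 with acetate). The replication licensing gene Cdc6 rose by 1.72 ± 0.24 and the cyclin gene Ccne2 by 1.91 ± 0.26 without acetate. With GLUT3 loss 5 rose and 1 fell without acetate, against 24.9% of all genes higher and 8.47% lower. With median-ratio scaling 0 rose and 2 fell there, in a fit that called 2664 of 14229 genes higher and 2189 lower. With acetate 2 rose and 4 fell, against 20.9% higher and 9.5% lower. The 4 that fell, named after their values were seen, were Mcm2, Mcm3, Mcm4 and Mcm6, subunits of the replicative helicase. Between the knockouts 11 were lower in GLUT3KO without acetate and 22 with it, against 15.2% and 20% of all genes lower, and none was higher. The part of these genes in the difference in Cdkn1a was not tested.

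Sesn2 is also known as a target of ATF4, the factor of the amino acid response, so 15 genes of that response were read beside it. With GLUT3 loss 4 of the 15 rose and none fell without acetate (median 0.29), a share near the 24.9% of all genes called higher. Among them were the cystine transporter gene Slc7a11 (1.11 ± 0.17, limma adjusted p = 0.000137) and Nupr1 (1.15 ± 0.23, adjusted p = 0.00138). With acetate 7 rose and none fell (median 0.67), against 20.9% of all genes higher, Nupr1 by 1.48 ± 0.23 (adjusted p = 0.000195). ACLY loss changed 1 gene in each setting, against 19.1% and 13.5% of all genes in either direction without and with acetate. These were Atf5 without acetate (-1.31 ± 0.41, adjusted p = 0.0377) and Slc7a11 with it (0.78 ± 0.17, adjusted p = 0.00586). The part of this response in the level of Sesn2 was not tested.

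Over the 18 libraries, which share groups and the axis described above, the tested genes with a pattern most like that of Cdkn1a included Rhbdf2, Tcp11l2, Pim1 and Rab40c. Their Pearson r with Cdkn1a in log2(TPM + 1) was 0.971, 0.968, 0.963 and 0.955.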

How the data were processed

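RNA was sequenced as single-end reads of a stranded messenger RNA kit, per the labels' protocols. The submitters' processing notes name build GRCm38.p6 and the tools STAR 2.7.2b, featureCounts 1.6.4, cutadapt, DESeq2 and Subread, besides bcl2fastq 2.20.0.422, without their roles. The authors deposited 1 table of TPM with each gene's exon length in bases, and all 18 columns were mapped to samples by name. TPM times exon length gave whole reads, within 0.01 reads, for 100% of 223003 values under 500 reads. Groups were compared with limma 3.58.1 in R 4.3.3 on log2(TPM + 1), with 6 group means over 18 libraries and a trended, robust spread. Genes needed 1 TPM in 3 libraries (14229 genes), and p-values were adjusted over all of them by Benjamini and Hochberg in each of 11 comparisons. A change passed at an adjusted p under 0.05. The script was tested on simulated data.

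The members and gene lists were chosen with earlier results of these data known. Named were the 10 members, the targeted genes, Wrap53, up to 4 called genes of a list per comparison by adjusted p, and the 5 genes most correlated with Cdkn1a, of which 1 is not reported here. Same-numbered libraries deviated together in each genotype with and without acetate (residual correlations 0.120 to 0.548) and in WT and ACLYKO without acetate (0.285 to 0.577), which was taken as pairing. The labels give only a replicate number, so that this pairing is an inference. WT without acetate and ACLYKO with acetate, which were not compared, correlated at 0.442 to 0.801. The 28 alternatives varied the pseudocount, filter, scaling, groups fitted, replicate block, count model (voom) and libraries. The comparison of the knockouts with acetate was added after the data were seen.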

Additional observations from a re-analysis of the deposited data

How the results depend on the processing

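Of 110 member results 26 were called, and 15 of these were kept in every alternative that could be run. Of 3007 alternative values 68 lost a call, 88 gained one and 3 gained one with the other sign. A further 80 changed sign but were called in neither fit. The 3, none called over all libraries, included Trp53 with acetate in ACLYKO (-0.40 with the 5 libraries left out). The others, for GLUT3KO against ACLYKO without acetate and without ACLYKO replicate 1, were Trp53 (-0.47) and Mdm2 (0.41). Over all fits without 1 library these 2 went from -0.47 to 0.63 and from -0.26 to 0.41. The causes were not tested. Eda2r was not tested under a filter of 5 TPM, and 2 of its fits of the groups alone gave no value.

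For ACLY loss without acetate the 2 members called became 1 with no filter, 4 with median-ratio scaling, 0 in a fit of the groups alone and 4 with the 5 libraries left out. For ACLY loss with acetate 3 became 7 with median-ratio scaling, 6 with quantile normalization, 6 for the groups alone, 7 with voom and 8 with the 5 left out, fits in which 1669, 1788, 3484, 1741 and 5271 of all genes were called, against 1925. For GLUT3 loss 3 became 8 for the groups alone and 8 with the 5 left out with acetate, and 4 became 7 with the 5 left out without it, where GLUT3KO is 1 library. For acetate in WT 0 became 1 for the groups alone and 3 with the 5 left out, and in GLUT3KO 1 became 5 with the 5 left out, which sets 3 libraries against 1. In ACLYKO 2 became 1 with no filter, 1 with a filter of 5 TPM, 0 for the groups alone and 5 with the 5 left out. Both interactions went from 0 to 1 with the 5 left out, that of GLUT3KO again on 1 untreated library whose spread is taken from the other groups, and GLUT3KO against ACLYKO without acetate from 6 to 2 for the groups alone.

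Leaving out 1 library gave 3 to 4 members called for GLUT3 loss and 0 to 3 for ACLY loss without acetate, 3 to 5 and 2 to 7 with it, 0 to 1, 1 to 2 and 1 to 3 for acetate in WT, GLUT3KO and ACLYKO, 0 to 0 for both interactions, and 5 to 7 and 5 to 6 between the knockouts without and with acetate.

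With the replicate block 1 member was called for acetate in ACLYKO, as with the block by genotype (Eda2r adjusted p = 0.0524 and 0.0939). Where the numbers were not taken as pairing the groups, the block gave 5 members for ACLY loss with acetate (Cdkn1a 0.0247, Phlda3 0.0123). It also added Phlda3 between the knockouts without acetate (0.00972) and Trp53inp1 for GLUT3 loss with acetate (0.0313). For ACLY loss without acetate, where the numbers were taken as pairing, the block added Phlda3 (0.00724) and changed no other member's call.

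Over all genes, the fit of the groups alone called 350 genes against 2715 for ACLY loss without acetate and 9152 against 4329 for GLUT3 loss with acetate. Median-ratio scaling moved the share of called genes that were higher from 74.6% to 54.9% for GLUT3 loss and from 66.6% to 54.8% for ACLY loss without acetate, from 68.8% to 56.7% and 85.4% to 62.0% with it, from 38.1% to 57.5% and 67.6% to 56.6% for acetate in GLUT3KO and ACLYKO, and from 62.3% to 52.0% between the knockouts without acetate. With the 5 left out all-gene counts rose too, for example from 4753 to 7500 for GLUT3 loss without acetate, 2715 to 6956 for ACLY loss without acetate, 925 to 3868 for acetate in WT, 1813 to 3442 in GLUT3KO and 2458 to 5649 in ACLYKO. Leaving out 1 library gave 448 to 2368 genes for acetate in WT, 916 to 4145 in GLUT3KO, 1066 to 3752 for ACLY loss with acetate, 37 to 286 and 70 to 359 for the GLUT3KO and ACLYKO interactions. Depth limits Eda2r most, at 25 to 206 reads.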
